A study of Mus musculus with 4 samples.

Results

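The regulators of G protein signalling (RGS) genes analysed here were the 7 genes Rgs1, Rgs2, Rgs3, Rgs10, Rgs14, Rgs18 and Rgs19, picked by symbol from a deposited table of 17519 genes. Each of the 7 has 1 row in that table, and all 7 had an FPKM (fragments per kilobase of transcript, scaled to library size) of at least 1 in a library, the level needed for testing. The table holds 16 genes whose symbol is Rgs and a number, so another 9 RGS genes are given beside the 7. The libraries came from adult C57Bl.6 mouse spleen, from which cells carrying MHC class II, the molecule that presents antigen to helper T cells, were pulled out with magnetic beads. The day 0 group is 1 library of resting cells, freshly isolated, with no culture and no PSA. The day 1 group is 3 libraries of cells cultured for 24 h in Advanced RPMI1640 medium with serum and 50 µg/ml polysaccharide A (PSA), a capsule sugar of the bacterium Bacteroides fragilis. PSA and a day of culture came together in every day 1 library, so their parts in a difference cannot be told apart, and the labels do not say whether the day 1 libraries are separate mice, cultures or aliquots. The p-values below therefore measure the spread between 3 libraries that may be technical repeats.

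A G protein coupled receptor switches on a G protein by loading its alpha subunit with GTP, and RGS proteins shorten that signal by speeding up GTP hydrolysis. Leukocytes read most chemokines, lipid mediators and nucleotides through receptors of this kind, so RGS proteins set how long a B cell, dendritic cell or macrophage responds to a migration cue. The family is sorted by sequence into subfamilies. Rgs1, Rgs2, Rgs3 and Rgs18 belong to the R4 subfamily, Rgs10 and Rgs14 to R12, and Rgs19 to RZ.

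With limma on log2(FPKM + 1), 5 of the 7 genes were higher at day 1 (Rgs1, Rgs10, Rgs14, Rgs18 and Rgs19) and 2 were lower (Rgs2 and Rgs3), at a Benjamini-Hochberg adjusted p under 0.05. Rgs14 and Rgs18, listed at 0 at day 0, reached an FPKM of 1 only at day 1, so limma could not call them lower. The same fit called 35.0% of all 13903 tested genes higher and 19.0% lower, 54.0% in all, so calls are common in this comparison. Of its 4869 higher calls, 2079 were genes listed at 0 at day 0. Among the 10028 tested genes above 0 at day 0 the calls were nearly even, with 2790 higher and 2640 lower. The authors' deposited table calls 1 of the 7, Rgs2, which is lower there, and none higher, against 2.53% of its genes called lower and 0.28% higher at a false discovery rate under 0.05. For Rgs1 and Rgs18 the authors' deposited table has a log2 fold change of opposite sign to the FPKM difference. The median log2 change of the 7 was 1.50, beside 0.59 for all tested genes. The 5 members above 0 at day 0 had log2 changes of -1.55, -1.46, 1.50, 1.55 and 1.65, beside a median of 0.02 for all tested genes above 0 at day 0. In the authors' deposited table the median of the 7 was -0.95, beside 0.04 for the tested genes there.

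**Figure D1:**
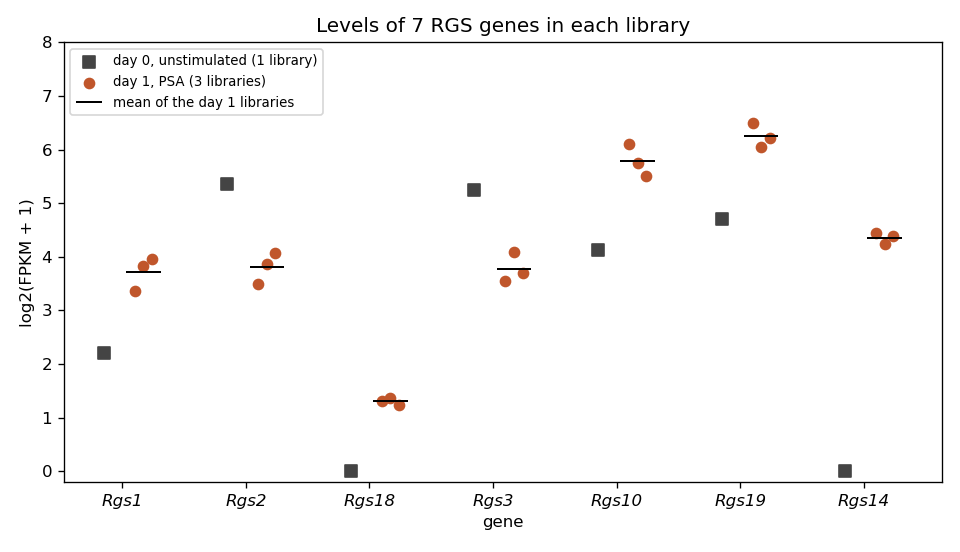
Level of each RGS gene, as log2(FPKM + 1), in the day 0 library (square) and in the 3 day 1 libraries (circles), with the day 1 mean as a line. The day 0 square lies above all 3 day 1 circles for Rgs2 and Rgs3 and below all 3 for the other 5 genes, and it is at 0 for Rgs14 and Rgs18.

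The day 0 library was the shallow one. The smallest FPKM values rise in steps worth 1 fragment, and by these steps the depth of the day 1 libraries was 13.99, 15.8 and 21.8 times that of day 0. A transcript of 2 kb needs an FPKM of 7.0 at day 0 to reach 3 fragments, but only 0.50, 0.443 and 0.322 in the day 1 libraries. At day 0, 7378 genes were listed at 0, and such a value can be a failed estimate, so a gene at 0 is given here without a linear fold, and its log2 change depends on the pseudocount. The day 0 library also differed in make-up. Its FPKM summed to 5119043, of which 590958 was in protein-coding genes, against sums of 579671 to 721825 at day 1, of which 483405 to 578666 was. The part of this in the RGS differences was not tested. Class II genes, the marker of the preparation, were abundant throughout, with a summed FPKM of 10595 at day 0 and 15501 to 19327 at day 1 over 7 genes, of which only Ciita was at 0 at day 0.

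Rgs2 and Rgs10 had start site sequences in the RefSeq table of GRCm38.p6, and these are shown because Rgs2 is the member that both tests called and Rgs10 moved the other way in limma. Each runs 5′ to 3′ along the gene's strand, from 250 bases before the transcription start to 50 bases after it. Capitals mark the CRE core TGACG, the CCAAT box and the GC box GGGCGG, read on both strands.
Rgs2 (minus strand, chr1:144004100-144004399): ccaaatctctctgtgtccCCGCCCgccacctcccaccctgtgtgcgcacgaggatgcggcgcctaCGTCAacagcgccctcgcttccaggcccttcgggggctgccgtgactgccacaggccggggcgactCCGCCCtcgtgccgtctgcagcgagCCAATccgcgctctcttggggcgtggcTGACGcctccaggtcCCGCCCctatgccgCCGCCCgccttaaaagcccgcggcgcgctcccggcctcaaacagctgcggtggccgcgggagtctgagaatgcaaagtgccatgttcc
Rgs10 (minus strand, chr7:128418123-128418422): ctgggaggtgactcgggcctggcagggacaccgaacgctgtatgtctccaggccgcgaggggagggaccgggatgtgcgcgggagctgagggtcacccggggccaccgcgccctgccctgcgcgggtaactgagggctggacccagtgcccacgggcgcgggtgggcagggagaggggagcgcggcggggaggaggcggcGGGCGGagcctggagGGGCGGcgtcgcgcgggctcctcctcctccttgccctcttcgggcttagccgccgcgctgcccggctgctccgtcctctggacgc
Both windows were rich in G and C, at 70.0% for Rgs2 and 76.0% for Rgs10, against a median of 52.7% over 32817 start sites in the table. The Rgs2 window held 33 CG pairs and the Rgs10 window 34, against a median of 7. The Rgs2 window held 2 CRE cores, which start 185 and 67 bases before the transcription start, a motif that 20.8% of all windows hold at least once, and the Rgs10 window held none. It also held 1 CCAAT box, present in 37.4% of windows, and 4 GC boxes, where Rgs10 had 2 and 35.6% of windows have any. These 3 motifs were chosen after the sequences were seen. The full CRE (TGACGTCA), which contains the core, the AP-1 motif (TGANTCA), an NF-kappaB core (GGANTTTCC), the E-box (CACGTG) and the TATA box (TATAAA) were not in either window. They are present in 1.79%, 7.81%, 1.26%, 7.15% and 13.6% of windows, and no binding was measured here. Rgs3 and Rgs19 were also matched in that table, at 2 and 3 start sites, and Rgs1, Rgs14 and Rgs18 were not. None of the windows of Rgs3, lower in limma, or of Rgs19, higher in limma, held a CRE core or a CCAAT box. G and C made up 49.7% and 58.7% of the Rgs3 windows, and 53.3%, 72.7% and 66.7% of the Rgs19 windows. The CRE core was thus not common to the lower members.

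Rgs2, which acts mainly on the Gq alpha subunit, lies on chromosome 1 (143999338 to 144004161, minus strand, GRCm38). Its FPKM was 40.2 at day 0 and 10.3, 13.6 and 15.8 in the day 1 libraries. All 3 day 1 values lay below the day 0 value, by 3.04-fold on the means (13.2 ± 2.8, SD, n = 3). The log2 change was -1.55 ± 0.28 (SE, limma adjusted p = 0.023). The authors' deposited table gives a larger fall, a log2 fold change of -2.87 with a false discovery rate of 2.3e-05. The limma call depended on which libraries were in the fit, as the adjusted p was 0.038 without day 1 replicate 1, 0.096 without replicate 2 and 0.054 without replicate 3. It was 0.058 when the libraries were scaled to the same sum over protein-coding genes. On its principal annotated transcript of 3021 nt, the day 0 value stands for about 26.0 fragments, and on the shortest coding one of 588 nt for about 5.1. The 95% exact Poisson interval of the day 0 FPKM, for counting error on the principal transcript only, ran from 26.2 to 58.9, above all 3 day 1 values. A shorter transcript would mean fewer fragments and a wider interval.

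Rgs3, an R4 member that acts on the Gi and Gq alpha subunits and has long and short protein forms, is on chromosome 4 (62559847 to 62704001, plus strand). Its FPKM was 36.9 at day 0 and 10.8, 16.0 and 12.01 at day 1. The day 1 libraries again all lay below day 0, and by nearly the same factor as for Rgs2, at 2.86-fold (mean 12.9 ± 2.7, SD, n = 3). The log2 change was -1.46 ± 0.27 (SE, limma adjusted p = 0.023). The authors' deposited table has -0.99 with a p-value of 0.045 and a false discovery rate of 0.49, which is not a call. The adjusted p was 0.066 without day 1 replicate 1 and 0.094 without day 1 replicate 3. The annotation gives Rgs3 17 transcripts, 8 of them coding, and the day 0 value stands for about 30.7 fragments on the principal transcript of 3888 nt or 3.9 on the shortest coding one.

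Rgs1 restrains the chemokine response of B cells and other leukocytes through the Gi and Gq alpha subunits, and lies near Rgs2 on chromosome 1 (144242296 to 144249242, minus strand). Its FPKM was 3.64 at day 0 and 9.30, 13.2 and 14.6 at day 1. Every day 1 library was above day 0, by 3.40-fold on the means (12.4 ± 2.7, SD, n = 3), and the log2 change was 1.50 ± 0.31 (SE, limma adjusted p = 0.029). The authors' deposited table has a fall, a log2 fold change of -1.54 with a p-value of 0.025 and a false discovery rate of 0.36. The direction of Rgs1 thus depends on which deposited columns are read. The gap between its FPKM log2 ratio and the authors' log2 fold change was 3.30. Over 6472 protein-coding genes with a day 0 value above 0 and a day 1 mean of at least 5, the median gap was 0.51, and 33 genes (0.51%) had a gap as large as that of Rgs1. The day 0 FPKM of Rgs1 stands for about 3.0 fragments on the principal transcript of 3841 nt and 0.32 on the shortest coding one of 409 nt, and its 95% exact Poisson interval of 0.749 to 10.6 holds the value of day 1 replicate 1. The limma adjusted p was 0.11 without day 1 replicate 2 and 0.087 without day 1 replicate 3.

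**Figure D2:**
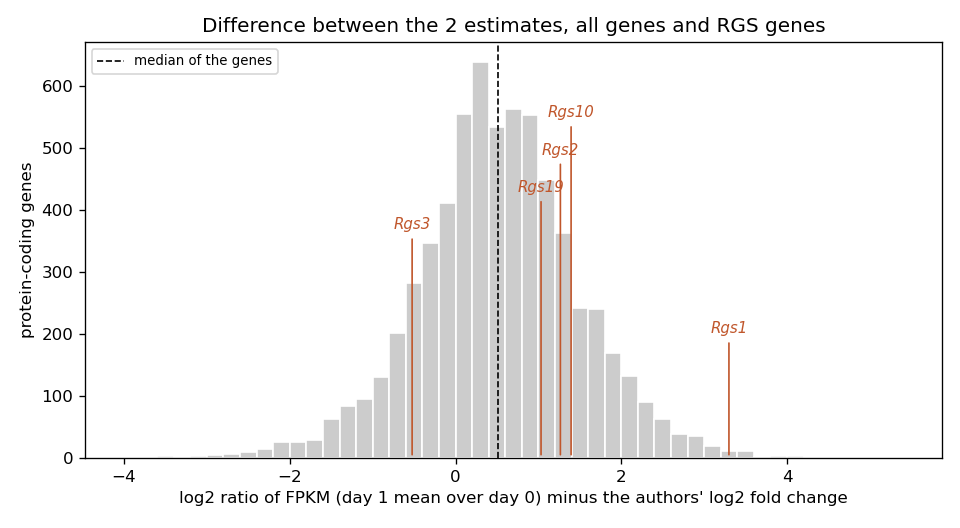
Histogram over 6472 protein-coding genes of the log2 ratio of FPKM (day 1 mean over day 0) minus the authors' log2 fold change, with the median as a dashed line and the 5 RGS genes above 0 at day 0 marked. Rgs1, at 3.30, stands in the upper tail, while Rgs3, at -0.52, and Rgs19, Rgs2 and Rgs10, at 1.03 to 1.39, stand within the bulk.

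Rgs18, the R4 member known from platelets and megakaryocytes, was the least abundant of the 7 at day 1. It lies on chromosome 1 (144752683 to 144775435, minus strand). Its day 0 value is listed as 0, and its day 1 values were 1.47, 1.60 and 1.37 (1.48 ± 0.11, SD, n = 3). The 3 day 1 libraries were close together, and limma called a rise (adjusted p = 0.011). The day 1 level predicts about 0.64 fragments in the day 0 library, so the 0 there does not show that the level differed. The authors' deposited table has an uncalled log2 fold change of -0.95 (false discovery rate 1). Of 4 tested platelet and megakaryocyte markers 1 was higher and 1 lower, with a summed FPKM over 7 genes of 7.58 at day 0 and 6.18 to 7.13 at day 1. Pf4, Ppbp, Itga2b, Gp9 and Gp1bb were at 0 at day 0. The part of these cells in the Rgs18 values was not tested.

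Rgs2, Rgs1 and Rgs18 are neighbours. With Rgs13 and Rgs21 they are the 5 RGS genes within 776 kb of chromosome 1 (143999338 to 144775435), and the annotation lists no other protein-coding gene inside that stretch. The neighbours did not share a direction in limma, since Rgs2 was lower and Rgs1 and Rgs18 were higher, whereas the authors' deposited table has all 3 at a negative log2 fold change. Rgs13, which is known from germinal centre B cells and mast cells, had an FPKM of 0 at day 0 and 0.448, 0.597 and 0.429 at day 1, too low for testing, and Rgs21 was not analysed here.

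The R12 genes stood higher at day 1. Rgs10, a small RGS protein made by macrophages, microglia and lymphocytes, is on chromosome 7 (128373621 to 128418758, minus strand). Its FPKM was 16.6 at day 0 and 67.5, 52.7 and 44.6 at day 1. All 3 day 1 libraries lay above day 0, by 3.32-fold on the means (54.9 ± 11.6, SD, n = 3). The log2 change was 1.65 ± 0.28 (SE, limma adjusted p = 0.020, and 0.091 without day 1 replicate 2). The authors' deposited table has an uncalled 0.34. The day 0 value stands for about 3.1 fragments on the principal transcript of 880 nt, and its 95% exact Poisson interval of 3.56 to 47.5 holds the value of day 1 replicate 3.

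Rgs14, which joins an RGS domain to Ras and Rap binding domains and to a GoLoco motif that holds Gi alpha subunits in their GDP form, is on chromosome 13 (55369732 to 55384687, plus strand). Its day 0 value is listed as 0, against 20.8, 17.8 and 20.0 in the day 1 libraries (19.5 ± 1.5, SD, n = 3). Limma called a rise (adjusted p = 0.0029), which was kept without any 1 day 1 library. The day 1 level predicts about 9.9 fragments in the day 0 library, where none are listed. The authors' deposited table has an uncalled log2 fold change of 0.40 (false discovery rate 0.96) at a mean log2 abundance of 5.40. Of the 4043 protein-coding genes at least that abundant in the authors' deposited table, 61 (1.51%) were at 0 at day 0. The 0 of Rgs14 is therefore not read as absence.

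Rgs19, also called GAIP, an RZ protein that acts on Gi alpha subunits and is anchored to vesicle membranes, was the most abundant of the 7 at day 1. It lies on chromosome 2 (181688419 to 181693977, minus strand). Its FPKM was 25.2 at day 0 and 89.0, 65.6 and 73.6 at day 1. Every day 1 library was above day 0, by 3.02-fold on the means (76.1 ± 11.9, SD, n = 3), and the log2 change was 1.55 ± 0.22 (SE, limma adjusted p = 0.014). The day 0 value stands for about 8.1 fragments on the principal transcript of 1511 nt and 2.3 on the shortest coding one, and on the former its 95% exact Poisson interval of 11.0 to 49.3 lay below all 3 day 1 values. The authors' deposited table has an uncalled 0.56 (false discovery rate 0.93). The limma adjusted p was 0.052 without day 1 replicate 2 and 0.067 without day 1 replicate 3.

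**Figure D3:**
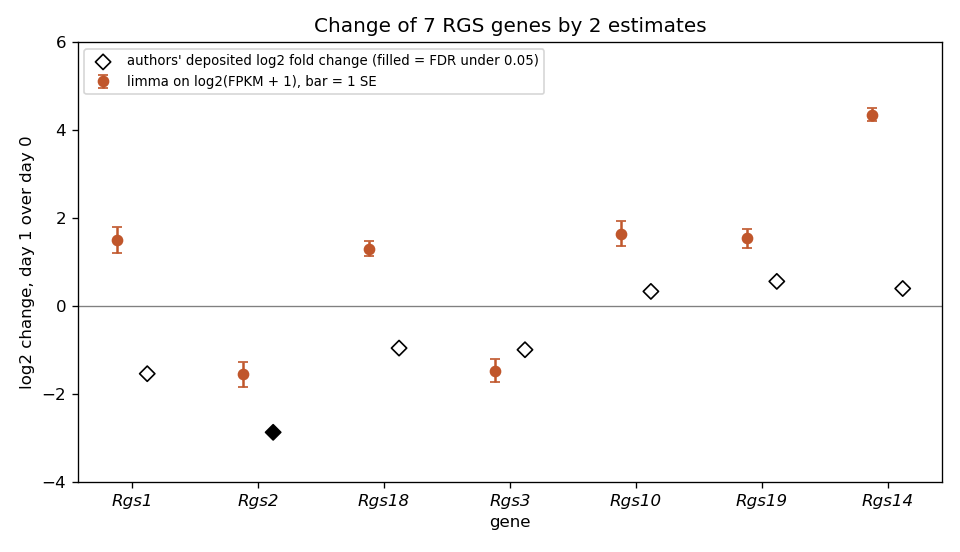
Log2 change of each RGS gene, day 1 over day 0, from limma on log2(FPKM + 1) (circles, bars 1 SE) and from the authors' deposited table (diamonds, filled where the false discovery rate is under 0.05). Rgs2 and Rgs3 are below 0 and Rgs10, Rgs19 and Rgs14 above 0 by both, while Rgs1 and Rgs18 are above 0 by limma and below 0 in the authors' deposited table.

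For all 7 genes the day 0 value lay outside the range of the day 1 libraries, which was so for 53.7% of tested genes with day 1 above and 31.4% with day 1 below. With 1 library against 3, an exact permutation test cannot give a p below 0.25, so the limma calls rest on lending the day 0 library the spread of the others. In bulk RNA, fewer cells of a type and less RNA per cell cannot be told apart.

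The make-up of RGS transcripts within a library does not depend on how libraries are scaled to each other, and FPKM is per length, so genes can be ranked by it. At day 0 the order of FPKM was Rgs2, Rgs3, Rgs19, Rgs10 and Rgs1, with Rgs14 and Rgs18 at 0. The 95% exact Poisson intervals on the principal transcripts overlap for Rgs2 (26.2 to 58.9), Rgs3 (25.0 to 52.4), Rgs19 (11.0 to 49.3) and Rgs10 (3.56 to 47.5). The day 0 order of those genes is therefore not resolved. In each day 1 library Rgs19 was the most abundant, followed by Rgs10 and then Rgs14, and Rgs18 was the least abundant. The day 1 means of Rgs1, Rgs2 and Rgs3, at 12.4, 13.2 and 12.9, lay within 1 SD of each other. Within libraries Rgs1 was below Rgs2 in 3 of 3, at ratios of 0.904, 0.970 and 0.922, Rgs3 held no fixed place beside either of them, and Rgs19 was above Rgs10 in 3 of 3. Rgs2 and Rgs3 made up 32.8% and 30.1% of the summed FPKM of the 7 genes at day 0. At day 1 their shares were 7.05% ± 1.93 and 6.87% ± 1.86 (SD, n = 3). Rgs19 went from 20.6% to 39.8% ± 3.2, and Rgs10 from 13.5% to 28.7% ± 3.9 (SD, n = 3). The sum itself was 122 at day 0 and 209, 180 and 182 at day 1. The day 0 shares and sum take the listed 0 of Rgs14 as it stands, and they carry the same counting error. At day 1 Rgs14 held 10.3% ± 0.6 of the sum (SD, n = 3).

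The ratio of Rgs2 to Rgs19 was 1.60 at day 0 and 0.115, 0.208 and 0.215 at day 1. It had to be lower in every day 1 library, since Rgs2 was below and Rgs19 above day 0 in each, so it is not a separate result. The ratio of Rgs10 to Rgs19 was 0.658 at day 0 and 0.758, 0.803 and 0.607 at day 1, and day 0 lay inside that range. The ratio of Rgs2 to Rgs3 was 1.09 at day 0 and 0.954, 0.853 and 1.31 at day 1, again with overlap. The day 0 ratios carry the counting error of few fragments.

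**Figure D4:**
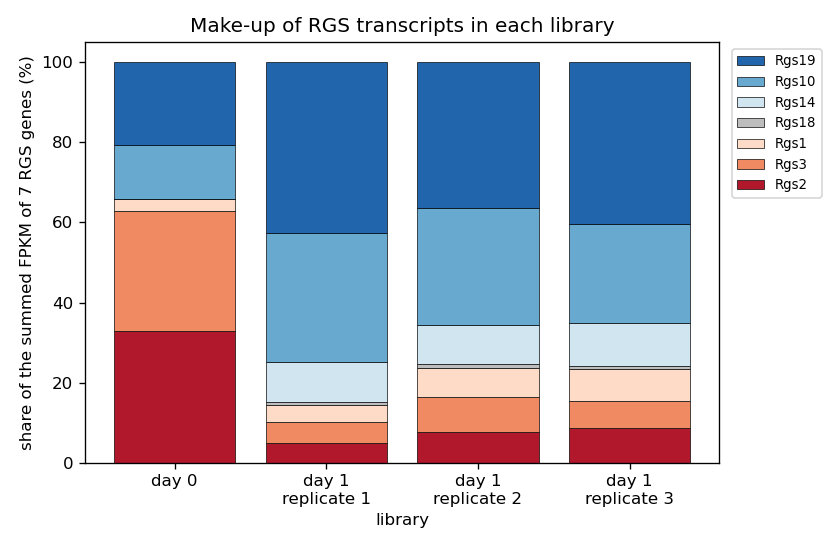
Share of each RGS gene in the summed FPKM of the 7 genes, in percent, 1 bar per library. Rgs2 and Rgs3 fill 32.8% and 30.1% of the day 0 bar, and Rgs19 and Rgs10 are the largest 2 parts of every day 1 bar.

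Among the 14239 protein-coding genes of the table, Rgs19 ranked at percentile 83.7 by FPKM at day 0 and reached 94.7, 92.7 and 93.8 at day 1, and Rgs10 at 77.1 and then 92.8, 90.8 and 89.1. Rgs2 ranked at 89.5 at day 0 and dropped to 64.3, 69.7 and 71.7 after culture. Rgs3 ranked at 88.5 and then 65.4, 73.0 and 65.8. Rgs1 ranked at 50.4 and then 62.3, 69.0 and 69.9. The ranks of Rgs2 and Rgs3 were lower, and those of Rgs10, Rgs19 and Rgs1 higher, in all 3 day 1 libraries than at day 0. Genes at 0 in the shallow day 0 library are tied at percentile 18.0, so ranks are not strictly comparable between the groups. The day 0 rank of Rgs1 rests on about 3.0 fragments.

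Of the other 9 RGS genes, 7 were tested, and 1 was higher and 4 were lower in limma. Over all tested genes 35.0% were higher and 19.0% lower. Rgs17, Rgs4 and Rgs9 reached the FPKM of 1 needed for testing only at day 0, and Rgs12, Rgs11 and Rgs22 only at day 1. For these genes the filter left only 1 direction open, so the counts are not read as a lean of the family. Rgs12, the remaining R12 gene, is listed as 0 at day 0 and had day 1 values of 1.96, 4.24 and 4.42 (limma adjusted p = 0.034). Rgs17, an RZ gene known mostly from brain, had an FPKM of 31.5 at day 0 against 0.209, 0.09 and 0 at day 1. The authors' deposited table also calls Rgs17 lower, with a log2 fold change of -7.78 (false discovery rate 0.024). Its day 0 value stands for about 54.7 fragments on the principal transcript of 8107 nt but 5.6 on the shortest coding one of 831 nt. Rgs20, the remaining RZ gene, went from 8.76 to 1.11, 0 and 0.07, and Rgs4, an R4 gene of neurons and heart, from 7.02 to 0 in every day 1 library. Rgs9, an R7 gene of retina and striatum, went from 3.79 to 0.159, 0 and 0.336. The day 0 values of Rgs20, Rgs4 and Rgs9 stand for about 3.3, 4.4 and 1.9 fragments on their principal transcripts, and the authors' deposited table calls none of these 3. Rgs11, at 0 and then 0.831, 1.57 and 0.348, and Rgs22, at 0 and then 1.37, 0 and 0.302, did not pass the test. Rgs16, at 0 and then 0.144, 0.50 and 0.452, was too low for testing, as was Rgs13.

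Other genes of the pathway are read beside the 35.0% of all tested genes that were higher and the 19.0% that were lower. Of 10 tested G alpha subunits, 4 were higher and 1 was lower. Gna15, a Gq class subunit of blood cells, is listed as 0 at day 0 and had day 1 values of 11.2, 10.6 and 7.52. Gna12 went from 2.72 to 8.82 ± 1.86 (SD, n = 3), with -0.07 in the authors' deposited table, and Gna13, which restrains B cell migration and growth, fell 2.09-fold, from 41.4 to 19.8 ± 2.3 (SD, n = 3). Of 9 tested G beta and gamma subunits, 3 were higher and none lower, among them Gnb1, from 40.5 to 129 ± 3.2 (SD, n = 3), and Gnb2, from 101.2 to 196 ± 21 (SD, n = 3). Of the 9, 2 were at 0 at day 0 and could not be called lower, and 1 of these was called higher. Of 5 tested other regulators of G alpha, 3 were higher and 1 was lower. Ric8 (Ric8a), a chaperone and exchange factor of G alpha, went from 9.48 to 33.5 ± 7.7, and Gpsm1, a GoLoco protein, from 2.31 to 6.37 ± 0.73, while Ccdc88a, an activator of Gi alpha, went from 13.2 to 1.23 ± 0.50 (SD, n = 3). No gene of these 3 lists is called in the authors' deposited table.

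Of 7 tested receptor kinases and arrestins, which silence the receptors themselves, 2 were higher and 1 was lower in limma. Arrb2 went from 21.8 to 55.6 ± 3.0 and Grk6 from 70.6 to 108 ± 5.1, and Arrb1 went from 12.5 to 5.53 ± 1.08 (SD, n = 3). The authors' deposited table calls none of the 7, and its log2 fold change of 0.69 for Arrb1 has the opposite sign. Effectors were higher in 7 of 16 tested genes and lower in none, with Arhgef1, the RhoGEF that G12 and G13 subunits switch on, at 123 and then 506 ± 26, Adcy7, an adenylyl cyclase of immune cells, at 7.79 and then 35.4 ± 2.8, and Pik3r5, a regulatory subunit of PI3-kinase gamma, at 1.18 and then 9.05 ± 0.52 (SD, n = 3). None of the effectors is called in the authors' deposited table. The median log2 changes were 0.79 for G alpha, 0.91 for G beta and gamma, 0.78 for the other regulators, 0.16 for kinases and arrestins and 0.97 for effectors, beside 0.59 for all tested genes. Several of these medians rest on genes at 0 at day 0, 5 of 16 among effectors. Those 5 effectors passed the filter only at day 1, so they could not be called lower, and they gave 2 of the 7 higher calls. Over genes above 0 at day 0 the medians were 0.57 for G alpha, 0.78 for G beta and gamma and 0.39 for effectors, beside 0.02 for all such genes, and the other 2 lists had no tested gene at 0.

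Of 31 tested G protein coupled receptors of spleen leukocytes, 12 were higher and 5 were lower, with a median log2 change of 0.84, or 0.24 without the 6 at 0 at day 0. Those 6 could not be called lower and gave 2 of the 12 higher calls. Of the 39 listed in the authors' deposited table, 6 are called lower there and none higher. Cx3cr1, the fractalkine receptor of monocytes and macrophages, had an FPKM of 32.8 at day 0 and 0, 0.455 and 0.168 at day 1. Ffar2 was at 119 and then 1.63 ± 0.86, Xcr1 at 3.84 and then 0.093 ± 0.106, and Ccr2 at 3.38 and then 0.736 ± 0.272 (SD, n = 3), and both tests called all 4 lower. S1pr3, a receptor for sphingosine 1-phosphate, at 1.03 and then 0.858 ± 0.160, and Ptger4, a receptor for prostaglandin E2, at 8.56 and then 4.12 ± 0.97 (SD, n = 3), are called lower in the authors' deposited table and did not pass limma. Cxcr3 is listed as 0 at day 0 and had day 1 values of 6.76, 6.66 and 6.69, with an uncalled 0.34 in the authors' deposited table.

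**Figure D5:**
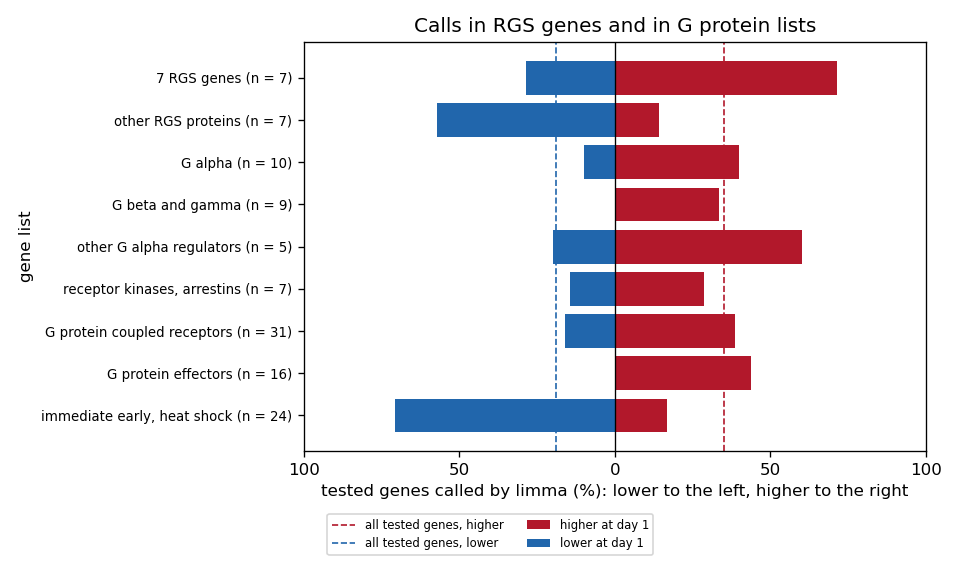
Share of tested genes called higher (red, to the right) or lower (blue, to the left) at day 1 by limma, in percent, for the 7 RGS genes, the other RGS proteins, the G protein lists and the immediate early and heat shock list; dashed lines give the 35.0% and 19.0% of all tested genes. The immediate early list leans to the lower side, and G beta and gamma subunits and effectors have no lower call. Of the tested G beta and gamma subunits 2 of 9, and of the effectors 5 of 16, were at 0 at day 0 and could not be called lower. Most of the other RGS proteins passed the filter in only 1 group, which set their direction. Among the 7 RGS genes this also holds for Rgs14 and Rgs18, which are at 0 at day 0.

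Other transcripts were read beside the RGS genes, against the same 35.0% higher and 19.0% lower of all tested genes. Transcripts of the immediate early and heat shock list, which respond quickly to stress and handling, were lower in 17 and higher in 4 of 24 tested genes, and their summed FPKM was 5252 at day 0 and 1384 to 1688 at day 1. Rgs2 is known as an early response gene, and the other members were not sorted by this trait. The largest falls in limma were those of Fos, 226-fold from 260.0 to 1.15 ± 0.23 (SD, n = 3), Fosb, 134-fold from 74.4 to 0.556 ± 0.226 (SD, n = 3), and Hsp90aa1, 25.2-fold from 2547 to between 90.2 and 118. The authors' deposited table calls 12 genes of that list lower, these 3 and Klf4, Jun, Dusp1, Atf3, Junb, Nr4a1, Klf6, Jund and Hspa1b, and limma also called all 12. The falls of these 12 ran from 2.91-fold for Nr4a1 to 226-fold for Fos. As both tests called the 12 lower, that range does not stand for the list of 24, where 4 genes were higher in limma. Rgs2 and Rgs3 were lower by 3.04-fold and 2.86-fold. The other 5 RGS members were higher at day 1 in limma. Macrophage and monocyte markers were lower in 7 and higher in 3 of 12 tested genes, with a summed FPKM of 158 at day 0 and 148 to 155 at day 1, and Cd14 at 0 at day 0. Dendritic cell markers were lower in 5 and higher in 4 of 9, with a sum of 353 and then 277 to 339 and Zbtb46 at 0 at day 0, and B cell markers were lower in 2 and higher in 5 of 10, with a sum of 3621 and then 3377 to 4028 and none at 0. T and NK cell markers were lower in 3 and higher in 2 of 9, with a sum of 131 and then 110 to 139 and Ncr1 and Trac at 0 at day 0. Neutrophil markers were higher in 5 and lower in 1 of 9, with a sum of 23.1 and then 40.4 to 60.8, and all 5 higher genes were among the 6 at 0 at day 0 (Mpo, Ltf, S100a9, Elane, Retnlg and Camp). The authors' deposited table calls 6 macrophage and monocyte, 3 dendritic cell, 2 B cell and 2 T and NK cell markers lower. It calls no neutrophil marker, and none of these markers higher, beside 2.53% of its genes called lower. The part of any of these cells, or of early stress transcripts, in the RGS differences was not tested.

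For the 2 members with the largest log2 change at a pseudocount of 1, Rgs14 and Rgs10, the genes of most similar pattern were picked among 6029 tested genes with a mean FPKM of at least 10, by Euclidean distance over the 4 libraries of log2(FPKM + 1) centred on each gene's mean. For Rgs14 these were 2010109K11Rik, Csrp2 and Eci2, at distances of 0.064, 0.076 and 0.10, each listed at 0 at day 0. For Rgs10 the nearest were mt-Nd4 and Gm9385, at distances of 0.082 and 0.10. With 1 day 0 library, this likeness is a description of 4 values per gene. The choice of Rgs10 depends on the setting, since with a pseudocount of 0.1 Rgs18, at 3.98, was above Rgs10, at 1.70, and with median ratio scaling Rgs2, at -1.75, changed more than Rgs10, at 1.45.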

How the data were processed

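RNA of 4 mouse spleen libraries was sequenced on an Illumina HiSeq after Qiagen RNeasy extraction, and reads under 10 nt were dropped, per the labels' protocols. The submitters' processing notes name Cuffdiff, Cufflinks 2.2.1, TopHat 1.4.1 and cutadapt, and build GRCm38.p6; annotation and strand handling are not stated in the sources used here. The authors deposited FPKM per library, with a log2 fold change, a mean log2 abundance, p-values and false discovery rates whose test the headers do not name.

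Changes were tested with limma 3.58.1 (R 4.3.3, trend) on log2(FPKM + 1) for genes reaching an FPKM of 1 in any library. All genes were adjusted together (Benjamini-Hochberg, threshold 0.05). There were 2 residual degrees of freedom, as day 0 was given the spread of day 1. The test was also run on simulated data. Fragment worth was estimated from 1182 single-transcript protein-coding genes (GENCODE M21, GRCm38). Of the low values, 62.7% to 68.6% lay within 0.1 of a whole fragment. Fragments per gene use the principal annotated transcript, and intervals cover counting error only. The members, lists and rules were chosen with earlier results of these data known. Named genes are all members, and per list up to 3 of the largest limma changes with an FPKM of at least 5, plus those the authors' deposited table calls; of the cell type marker lists only counts, sums and genes at 0 are printed. How the authors' estimate divided reads among transcripts of a gene is not known. The erythroid marker list and 1 gene of similar pattern to Rgs10 are not reported here.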

Additional observations from a re-analysis of the deposited data

How the results depend on the processing

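Each RGS gene kept its direction under all alternatives run. All of them used the same day 0 library, which lay outside the day 1 range of each gene, so a kept direction adds little. The authors' deposited fold change, of opposite sign for Rgs1 and Rgs18, was not among them. Of 67 values, 57 stayed on the same side of the threshold, while 10 lost the call. Of the 46 values from another pseudocount, filter, scaling or no trend, 1 lost it: Rgs2 at -1.39 with protein-coding sum scaling (adjusted p = 0.058; range over its alternatives 0.015 to 0.096). The other 9 came from leaving out a day 1 library. Across these the log2 changes ran from 1.38 to 1.68 for Rgs1, -1.68 to -1.39 for Rgs2, -1.61 to -1.35 for Rgs3, 1.50 to 1.79 for Rgs10, 4.31 to 4.42 for Rgs14, 1.28 to 1.34 for Rgs18 and 1.43 to 1.65 for Rgs19. The number of members called ran from 3 to 6 and the number of all genes called from 3634 (without replicate 2) to 5887, against 7509. Only Rgs14 and Rgs18, both at 0 at day 0, kept their call in every fit that held them. Scaling cannot move a listed 0, and their day 1 values were close together, so this does not make them the surest changes. Rgs18 could not be fitted with an FPKM of at least 5, nor Rgs14 and Rgs18 without the genes at 0 at day 0. Leaving those genes out moved the median log2 change of all genes from 0.59 to 0.02, and median ratio and protein-coding scaling moved it by -0.14 and 0.11. With a pseudocount of 0.1 the log2 changes of Rgs14 and Rgs18 were 7.61 and 3.98, by construction, since their day 0 value is 0. No paired analysis was possible because the day 0 group has 1 library. Depth limits every day 0 value.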
